A study of Homo sapiens with 24 samples.

Results

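Cytokines, chemokines and their receptors are the secreted signals, and the surface proteins that read them, by which blood cells attract, activate and restrain each other. They were taken here as the protein-coding genes whose symbol begins with CXCL, CXCR, TNFSF or TNFRSF, or with CCL, CCR or IL followed by a digit. This rule found 101 of the 14884 genes named on the arrays. They comprised 62 ligands, 35 receptors, the 3 inhibitors IL1RN, IL18BP and IL36RN, and IL4I1, an amino acid oxidase that shares only the prefix. Every member had a single row. No TNFSF or TNFRSF gene had a named row, and these families are not analysed here.

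The levels were measured with 24 Affymetrix arrays in 4 established acute myeloid leukaemia lines, which are cultured human blood cancer cells. The 8 groups were HL60, KG1a, MOLM14 and U937 after 24 h in 10 mM metformin, each set against the same line without drug (control), with 3 arrays per group lettered A to C. Metformin, a biguanide, blocks complex I of the mitochondrial respiratory chain, which was the stated reason for its use. By the labels KG1a and MOLM14 have high oxidative phosphorylation (OXPHOS), whereas HL60 and U937 have low OXPHOS, and a second label moves the metformin-treated KG1a and MOLM14 arrays to low OXPHOS. Whether the 3 arrays of a group are separate cultures is not said, so a p-value here speaks only to the spread among arrays, which may be technical. Each line is a single cell line grown without stroma or other immune cells.

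Chemokines of the CXC and CC families bind receptors coupled to G proteins and direct the movement of leukocytes: CXCL8 acts on neutrophils through CXCR1 and CXCR2, CCL2 on monocytes through CCR2, and CXCL12 holds blood progenitors in the marrow through CXCR4. Most interleukins act through paired receptor chains. Receptors of the IL6, IL7 and IL31 kind signal through JAK kinases and STAT factors, whereas receptors of the IL1 and IL18 kind signal through MYD88 and IRAK kinases to NF-kB. Myeloid cells make many of these proteins, and their genes are often silent until a cell is stimulated.

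Values are log2 normalized signals as deposited, changes are metformin minus control on that scale ± the standard error (SE) of the fit, and levels were compared only within a gene. The median of all values, 4.02, served as a lower limit: a gene was tested where at least 1 group mean reached it, since differences under it are compressed. Of the 101 members 53 were tested, namely 27 ligands, 23 receptors, IL1RN, IL18BP and IL4I1. The other 48 members (47.5%, against 28.5% of all named genes) stayed under the limit in all groups. Just inside it lay CXCL12, IL17C and IL19 with highest group means of 4.06, 4.07 and 4.12, and just outside it IL17REL, CCL27 and CCL3 with 4.0, 3.99 and 3.99. A member was called where the adjusted p of limma's moderated test over 10641 genes lay under 0.05. Whether treated and control arrays overlapped is given only as a description. With so few arrays some genes separate by chance, and the share of all genes without overlap was not counted. A change that did not pass is therefore not strengthened by a lack of overlap.

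Array medians lay between 3.99 and 4.08. Arrays of a group correlated at 0.983 to 0.993, and the lowest values involved U937 metformin A and control C of both HL60 and U937. Results that rest on them are given with and without all 3, called the 3 low arrays. Markers of blood lineages differed between the lines. The progenitor gene CD34 averaged 11.28 in metformin and 11.24 in control KG1a arrays and at most 3.61 in the other groups. FLT3 was above 4.02 in MOLM14 and in no other line. The granulocyte gene CTSG averaged 9.81 or more in HL60, MOLM14 and U937 and at most 3.81 in KG1a. MPO, also a granulocyte gene, averaged 12.53 with metformin and 12.48 without in HL60, and 7.62 and 8.93 in MOLM14. It was under 4.02 in U937 (3.19 and 3.30) and in KG1a (3.22 and 3.26). The monocyte gene CD14 was under 4.02 in all 8 groups, while LYZ was under it in KG1a and above it in the other lines. Of the T cell genes CD2 reached 4.13 at most and CD8A lay between 4.21 and 4.44 in all groups. No gene of the B cell or stromal lists had a named row.

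Untreated, the 4 lines carried different receptor sets. Of 53 members 40 differed between the untreated lines (moderated F test), against a background of 83.2% of all genes. The members that differed included 22 of 23 receptors and 15 of 27 ligands. The distance between the highest and the lowest line had a median of 2.05 (log2) in the receptors, 0.49 in the ligands and 0.76 in all genes tested. Many tested ligands stayed close to the limit, where differences are compressed, such as IL27, CCL21 and CXCL17 with highest group means of 4.26, 4.30 and 4.35. The part of low signal in the smaller ligand median was not tested. In the plot of these distances 20 of 23 receptors lie at 1 or more, where 36% of all genes do, and IL17RA, IL18RAP and CXCR4 lie above 4. Among the ligands CCL2 and IL32 lie above 4, and 9 of 27 lie at 1 or more. CXCR6, IL17RC and IL20RB were the receptors with the smallest distances, and their highest group means of 4.14, 4.36 and 4.23 also lay close to the limit. In 25 members all 4 untreated lines were at or above 4.02, and in 11 members a single line was: CCR4, CXCL10, CXCL11, IL7 and IL15 in KG1a, IL23R, CXCL12 and CXCR6 in HL60, CCL2 and CXCR2 in U937, and IL19 in MOLM14.

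**Figure D1:**
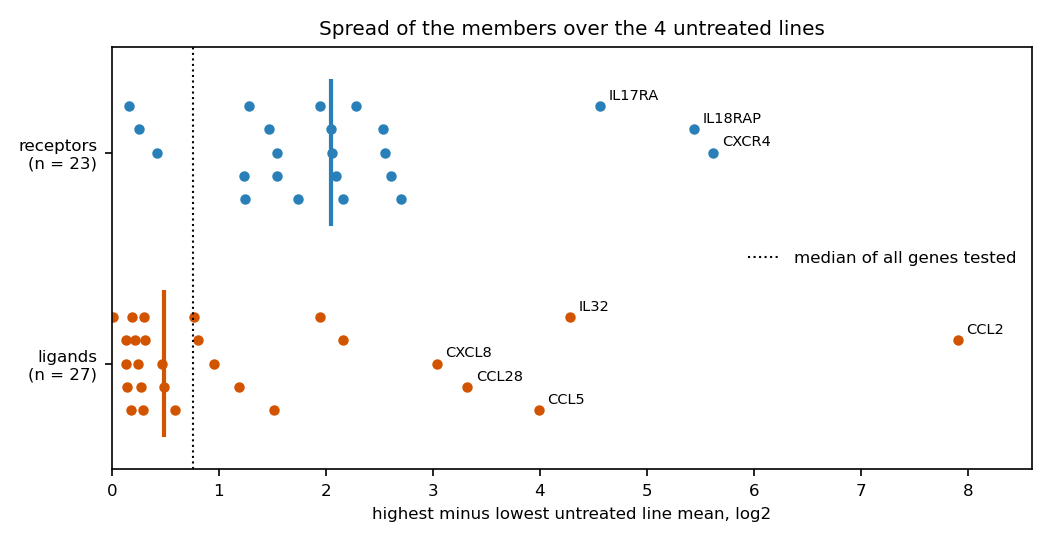
Distance between the highest and the lowest untreated line mean (log2) of each tested receptor and ligand (points), with the median of each role (thick bars) and of all genes tested (dotted line). Receptors have a median of 2.05 and ligands of 0.49, and CCL2 stands farthest right at 7.91. Many of the ligands lie close to the limit of 4.02, where differences are compressed.

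U937, a monocyte-like line, was set apart by CCL2, the ligand that draws monocytes. Its untreated arrays read 10.59, 10.79 and 10.72, against line means of 3.79 in MOLM14, 2.85 in KG1a and 2.80 in HL60, so the U937 arrays lay far above all others. Against the mean of the other 3 lines 34 members differed in U937, 18 higher (background 30.8%) and 16 lower (30.6%). CXCR4 was higher in U937 by 2.71 ± 0.07, IL32 by 2.18 ± 0.10, CXCL8 by 2.03 ± 0.12, CCL5 by 1.97 ± 0.07 and IL31RA by 1.94 ± 0.09. IL32 was higher still in KG1a, and CXCL8 arrays of U937 and HL60 overlapped. CCL28 (-2.10 ± 0.07), CCR2 (-1.05 ± 0.08), IL18RAP (-0.94 ± 0.10) and IL9R (-0.83 ± 0.08) were lower in U937 than that mean. CCL28 averaged 3.18 in U937 and 3.17 in HL60, and CCR2 3.65 and 3.66, all under 4.02. Their values therefore restate the higher levels in KG1a and MOLM14. For IL18RAP and IL9R only KG1a, at 9.17 and 6.82, lay above U937, at 4.94 and 4.27. The means of HL60 and MOLM14 were below those of U937 for both genes. CCL2 and its receptor CCR2 thus led different lines.

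KG1a, the CD34-positive line, carried IL18RAP, the second chain of the IL18 receptor, at 9.16, 9.22 and 9.12, against means of 4.94 in U937, 4.76 in HL60 and 3.72 in MOLM14. Its arrays did not overlap those of any other line. Against the other lines 18 members were higher in KG1a (background 29.2%) and 18 lower (33.6%). IL32 was higher by 2.98 ± 0.10, IL9R by 2.58 ± 0.08, CCL28 by 2.32 ± 0.07, CCR4 by 1.80 ± 0.10 and IL16 by 1.72 ± 0.09. The IL9R value is uncertain because the genome holds near-identical copies of that gene. CXCR4 read 4.31, 4.50 and 4.26 in KG1a, close to the limit, against 8.46 to 9.98 in the other lines, a difference of -4.79 ± 0.07 from their mean. IL17RA, the shared chain of the IL17 receptors, read 5.04, 5.24 and 4.99 in KG1a, against means of 9.15 to 9.65. It was lower (-4.38 ± 0.08), as was CCL5 (-3.36 ± 0.07). CCL2 differed by -2.92 ± 0.13, but its means were under 4.02 in KG1a, HL60 and MOLM14 alike. That value therefore restates the high level in U937.

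MOLM14 led in CCR2, the receptor by which monocytes follow CCL2. It read 6.19, 6.36 and 6.03 there, against 4.27 in KG1a and 3.66 and 3.65 in HL60 and U937, and was higher than the mean of the other lines by 2.33 ± 0.08. IL7R was higher by 2.15 ± 0.09, CCL28 by 1.89 ± 0.07, IL17RA by 1.71 ± 0.08, the antagonist IL1RN by 1.63 ± 0.08 and CCR1 by 1.55 ± 0.08. CCL28 was higher still in KG1a, and IL17RA arrays of MOLM14 and HL60 overlapped. Both IL18 receptor chains were lower in MOLM14, IL18RAP (-2.57 ± 0.10) and IL18R1 (-2.52 ± 0.08), as were IL32 (-2.42 ± 0.10) and CXCL8 (-1.73 ± 0.12). The mean of IL32 was lower still in HL60, and that of CXCL8 in KG1a. In all 17 members were higher in MOLM14 (background 27.6%) and 16 lower (34.4%).

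HL60 led in IL23R, the receptor chain specific to IL23, with 5.58, 5.55 and 5.59, against at most 3.82 in the other lines. It was higher than their mean by 1.94 ± 0.08, CXCL8 by 1.72 ± 0.12, IL17RA by 1.63 ± 0.08, the IL33 receptor IL1RL1 by 1.28 ± 0.08, CCR7 by 1.25 ± 0.11 and IL18R1 by 0.91 ± 0.08. HL60 did not lead in all of these. CXCL8 and IL18R1 had higher means in U937 and IL17RA in MOLM14, with arrays that overlapped those of HL60. CCL2 (-2.99 ± 0.13), IL32 (-2.74 ± 0.10), CCL28 (-2.11 ± 0.07) and IL6R (-1.86 ± 0.07) were lower. For CCL2 this again restates the high level in U937, and for CCL28 the higher levels in KG1a and MOLM14. Of 53 members 10 were higher in HL60 (background 29.8%) and 24 lower (28.6%). These 4 comparisons share arrays and are not independent, and a difference from the mean of the other lines need not make a line the highest or lowest. Adjusted p was at most 6.4e-09 for the members named for any line.

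**Figure D2:**
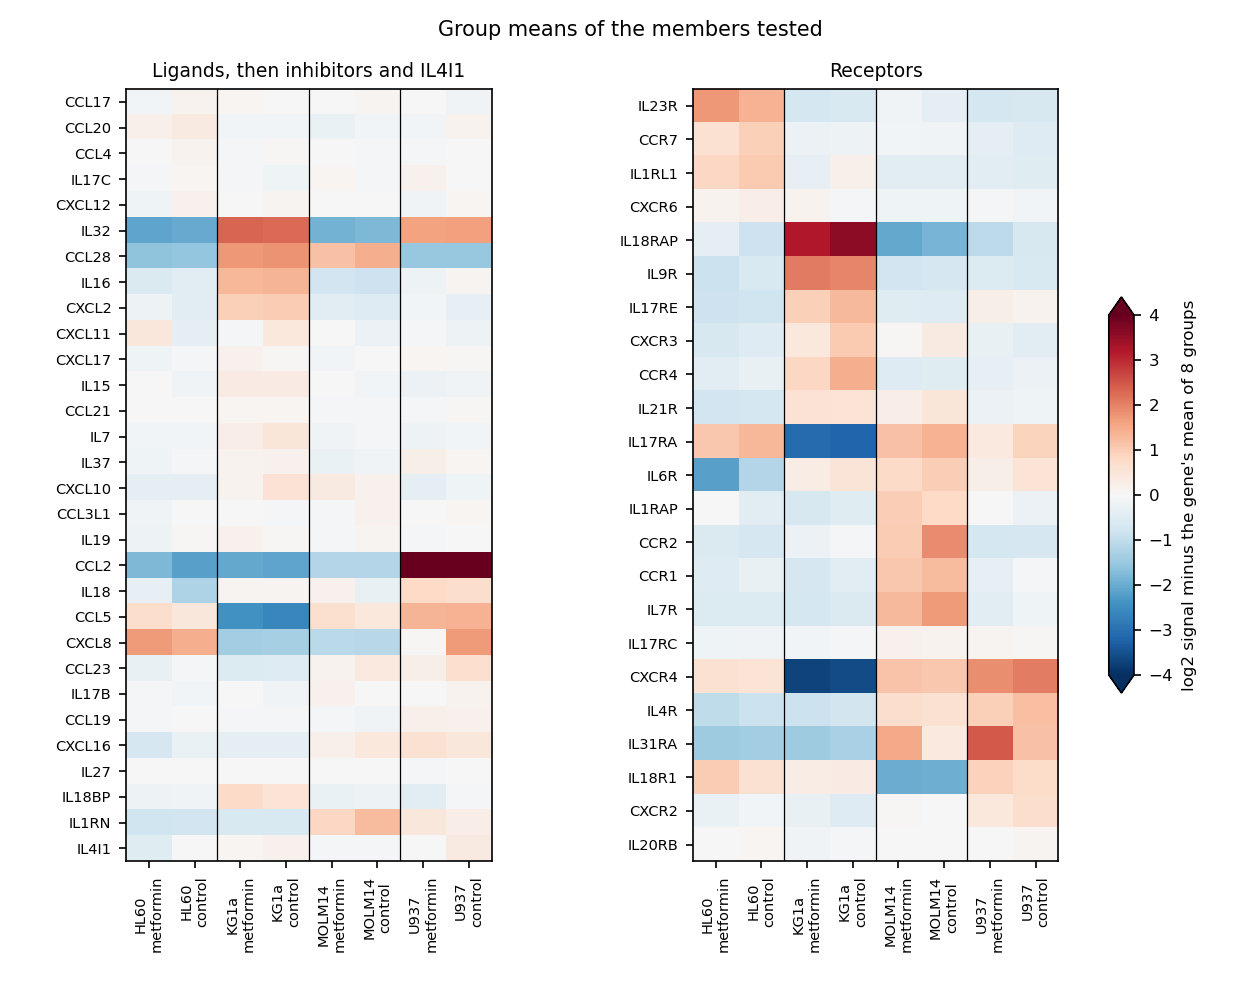
Group means of the 53 tested members, shown as the log2 signal minus the gene's mean over the 8 groups; each line has its metformin column left of its control column, and values beyond 4 take the end colour. The 2 columns of a line resemble each other, and blocks differ mainly between lines, with CCL2 highest in U937 and CXCR4 and IL17RA lowest in KG1a.

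Between the OXPHOS classes 37 untreated members differed, 21 higher in the high OXPHOS lines (background 28.4%) and 16 lower (33.5%). CCL28 was higher by 3.16 ± 0.06, IL18RAP by 1.59 ± 0.08, CCR2 by 1.57 ± 0.07, IL9R by 1.25 ± 0.07, CXCR3 by 1.16 ± 0.10 and IL6R by 1.06 ± 0.06. CCL2 (-3.43 ± 0.11), CXCL8 (-2.81 ± 0.10), CXCR4 (-2.54 ± 0.06), CCL5 (-2.01 ± 0.06), IL17RA (-2.00 ± 0.07) and IL18R1 (-1.49 ± 0.07) were lower. A class holds 2 lines, and several of these values are carried by a single line. CCL2 differed by -7.85 between KG1a and U937 but by 0.05 between KG1a and HL60. Of the members named here CCL28, CCR2, CXCR3, CXCL8, CCL5 and IL18R1 kept their sign in all 4 pairs of lines, whereas IL18RAP, IL9R, IL6R, CCL2, CXCR4 and IL17RA did not.

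With metformin 24 of the 53 members were called in some comparison and 29 in none. In single lines 23 members were called, 6 of them in 2 lines and none in more. The matching shares of all genes were not counted, so these totals have no background and are not read as a trait of the members. HL60 had 12 calls, 7 higher (background 15.5%) and 5 lower (9.56%). Quantile normalization gave 5 higher and 6 lower in HL60, and arrays centred on their medians gave 7 and 2. U937 had 9 calls, 1 higher (background 7.46%) and 8 lower (9.74%). MOLM14 had 5, 2 higher (background 2.48%) and 3 lower (2.57%), and KG1a 3, all lower (background 1.67%). None was higher in KG1a by limma (background 0.818%), where 1 member, CCL5, was higher at an unadjusted p under 0.05. The members' share of calls was thus close to that of all genes in HL60 (22.6% of members, 25.1% of all) and U937 (17% and 17.2%). In KG1a it was 5.66% against 2.49% and in MOLM14 9.43% against 5.06%, on 3 and 5 genes.

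**Figure D3:**
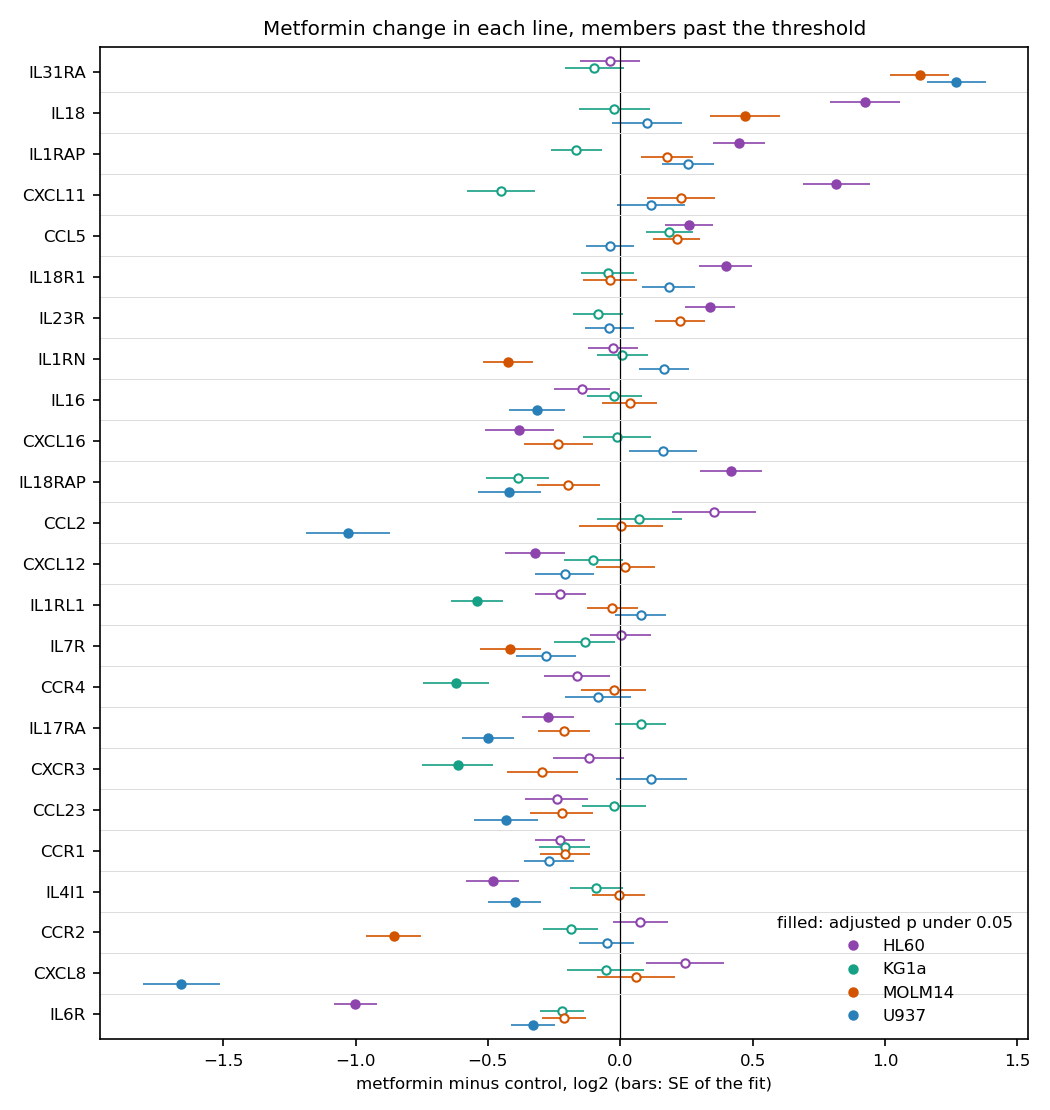
Metformin minus control (log2) for the 24 members called in any metformin comparison, in each of the 4 lines; bars are the SE of the fit and filled points have an adjusted p under 0.05. The largest rises are those of IL31RA in MOLM14 and U937 and the largest falls those of CXCL8 and CCL2 in U937 and IL6R in HL60.

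Among the ligands, the neutrophil attractant CXCL8 fell in U937. Its arrays read 5.07, 4.87 and 4.39 with metformin, against 6.55, 6.53 and 6.24 without, and the groups did not overlap. The change was -1.66 ± 0.15 (adjusted p = 2.88e-08). HL60 holds CXCL8 at a like level but read 6.57, 6.22 and 6.54 with metformin, against 6.07, 6.54 and 6.00 in controls, and these groups overlapped. In KG1a and MOLM14 all CXCL8 arrays were under 4.02.

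CCL2 fell in the same line. Metformin-treated U937 arrays read 9.79, 9.86 and 9.37, against 10.59, 10.79 and 10.72 in controls, a change of -1.03 ± 0.16 (adjusted p = 9.85e-05). Every treated array lay below every control array. The gene still read far above the other lines after treatment.

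IL18, a ligand of the IL1 family made as an inactive precursor, rose in HL60. Its arrays read 7.81, 7.57 and 7.90 with metformin, against 7.03, 7.08 and 6.39 in controls, without overlap. The change was 0.93 ± 0.13 (adjusted p = 1.43e-05), and 0.705 without HL60 control C, the array with the lowest value. In MOLM14 IL18 read 8.24, 8.21 and 8.28, against 7.85, 7.52 and 7.95, a rise of 0.47 ± 0.13 (adjusted p = 0.0384). That call was lost in 5 of 6 fits that left out an array of MOLM14, with changes between 0.34 and 0.56 and the largest adjusted p, 0.220, without MOLM14 control B. IL18 changed by -0.02 ± 0.13 in KG1a and 0.10 ± 0.13 in U937, neither of which passed.

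CXCL11, a ligand of CXCR3 that interferons induce, rose in HL60 and ran the other way in KG1a. HL60 arrays read 4.94, 4.36 and 4.59 with metformin, against 3.96, 3.58 and 3.91 in controls, without overlap (0.82 ± 0.13, adjusted p = 4.24e-05). The HL60 controls lie under 4.02, so the change is compressed. KG1a arrays read 4.26, 4.15 and 4.0, against 4.67, 4.71 and 4.37, also without overlap, but the change of -0.45 ± 0.13 did not pass.

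The other ligands called in HL60 moved less. CCL5, which attracts T cells and monocytes, rose by 0.26 ± 0.09 (adjusted p = 0.0360). CXCL16, a chemokine made as a membrane protein, passed with a change of -0.38 ± 0.13 (adjusted p = 0.0325), but all 6 HL60 arrays lay under 4.02 (3.04 to 3.63), and it was tested through MOLM14 and U937. CXCL12 passed with -0.32 ± 0.11 (adjusted p = 0.0366), but entered the test only through the HL60 control mean of 4.06, the level this change is measured from, so no fall is read from it. These calls leaned on single arrays. CCL5 was lost without HL60 control B (0.15) and without any of the 3 metformin arrays (0.23 to 0.28). CXCL16 was lost without HL60 control A or B or metformin A or B (-0.40 to -0.32), and CXCL12 without metformin A or B (-0.30 and -0.29).

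In U937 CCL23, a chemokine that binds CCR1, read 4.34, 4.54 and 4.55 with metformin, against 4.64, 4.73 and 5.35 in controls. It fell by 0.43 ± 0.12 (adjusted p = 0.0141), but the high value of control C carried much of this. Without control C the change was -0.21, without metformin A it was -0.36, and without the 3 low arrays -0.14 (adjusted p = 0.338). IL16, a CD4 ligand, fell by 0.31 ± 0.10 (adjusted p = 0.0395), and was lost without any control array or without metformin A or B (-0.35 to -0.29) and without the 3 low arrays (-0.28). No ligand passed limma's test in KG1a, where 4 had an unadjusted p under 0.05, and IL18 was the ligand that passed in MOLM14.

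The upstream sequences of 4 called members are shown because each holds letters of the NF-kB type, and because the genes moved in different directions. They are the 250 bases before the gene start in RefSeq (GRCh38.p14), read 5′ to 3′ on the gene's strand, from chr4:73740319-73740568 (plus strand) for CXCL8, chr4:76036071-76036320 (minus) for CXCL11, chr2:102355546-102355795 (plus) for IL18R1 and chr2:102418371-102418620 (plus) for IL18RAP. Capitals mark the motifs found.
CXCL8: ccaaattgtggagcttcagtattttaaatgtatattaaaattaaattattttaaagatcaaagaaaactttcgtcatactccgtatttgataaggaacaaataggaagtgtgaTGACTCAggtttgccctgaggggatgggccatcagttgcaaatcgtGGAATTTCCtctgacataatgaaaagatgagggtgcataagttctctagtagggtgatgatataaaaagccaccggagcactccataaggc
CXCL11: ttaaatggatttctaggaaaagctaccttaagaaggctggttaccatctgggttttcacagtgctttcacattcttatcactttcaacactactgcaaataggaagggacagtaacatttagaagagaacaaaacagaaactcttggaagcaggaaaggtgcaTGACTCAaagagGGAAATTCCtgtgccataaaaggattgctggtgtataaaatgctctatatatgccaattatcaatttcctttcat
IL18R1: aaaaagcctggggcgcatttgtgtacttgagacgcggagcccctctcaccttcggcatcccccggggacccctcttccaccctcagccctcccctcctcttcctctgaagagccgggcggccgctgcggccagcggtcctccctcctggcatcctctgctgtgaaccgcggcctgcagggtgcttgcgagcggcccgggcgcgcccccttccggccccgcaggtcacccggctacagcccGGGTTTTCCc
IL18RAP: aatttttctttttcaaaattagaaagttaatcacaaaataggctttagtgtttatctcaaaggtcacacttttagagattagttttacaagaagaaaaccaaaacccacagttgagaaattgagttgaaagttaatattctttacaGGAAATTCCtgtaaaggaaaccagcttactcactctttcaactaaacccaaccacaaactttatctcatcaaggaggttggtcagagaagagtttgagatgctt

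The motifs searched on both strands were GGNNTTTCC (NF-kB type), TGANTCA (AP-1 type) and TGATGNAA (C/EBP-ATF type). Of the 24 called members 17 had an upstream sequence. The NF-kB type was in 4 of these, against 5.48% of 35116 upstream sequences of the same length. The AP-1 type was in 5, namely CCR2, CXCL11, CXCL8, IL1RL1 and IL1RN, against 6.57%, and the C/EBP-ATF type was in IL7R alone, against 3.14%. In CXCL8 the NF-kB letters lie 91 to 83 bases and the AP-1 letters 137 to 131 bases before the start. In CXCL11 they lie 75 to 67 and 87 to 81 bases before it, and no motif printed overlaps another. CXCL8 fell in U937 and CXCL11 rose in HL60 with both motifs present. A match is a description of letters and not a measured binding site.

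Among the receptors IL31RA, the chain specific to IL31, rose most. MOLM14 arrays read 6.35, 6.32 and 6.39 with metformin, against 5.17, 4.99 and 5.51 in controls (1.13 ± 0.11, adjusted p = 5.77e-07). U937 arrays read 7.16, 7.26 and 7.44, against 6.01, 6.09 and 5.95 (1.27 ± 0.11, adjusted p = 3.02e-08). The groups did not overlap in either line, and in HL60 and KG1a all arrays were under 4.02. OSMR, which forms the signalling receptor together with IL31RA, was under 4.02 in all 8 groups, with group means of 3.23 to 3.45, and no group mean of the ligand IL31 exceeded 3.43.

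IL6R, the chain that binds IL6, fell in HL60. Its arrays read 5.97, 5.86 and 5.91 with metformin, against 6.86, 6.90 and 7.0 in controls, a change of -1.0 ± 0.08 (adjusted p = 2.69e-09). In U937 the arrays read 8.35, 8.26 and 8.34, against 8.73, 8.74 and 8.48 (-0.33 ± 0.08, adjusted p = 0.0072). Treated and control arrays did not overlap in any of the 4 lines. In KG1a (8.43, 8.4 and 8.37, against 8.76, 8.52 and 8.57) and MOLM14 (8.93, 8.81 and 8.85, against 8.96, 9.14 and 9.12) the changes of -0.22 ± 0.08 and -0.21 ± 0.08 did not pass.

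CCR2 fell in MOLM14, the line that leads in it. Treated arrays read 5.29, 5.37 and 5.35, against 6.19, 6.36 and 6.03 in controls, without overlap (-0.86 ± 0.10, adjusted p = 1.02e-05). IL7R, which reads IL7, read 5.60, 5.41 and 5.59, against 6.01, 5.92 and 5.91 (-0.42 ± 0.11, adjusted p = 0.0329). Its call was lost when any of the 6 MOLM14 arrays was left out, with changes of -0.45 to -0.35 and adjusted p of 0.0613 to 0.152. The summed level of the 6 named monocytic markers was also lower in treated MOLM14 (38.0 against 40.5 in controls), led by MNDA (5.65 against 6.87). That sum was 39.3 against 39.5 in U937, 31.0 against 32.1 in HL60 and 23.7 against 24.0 in KG1a. The 4 named granulocytic markers summed to 40.8 against 42.5 in MOLM14 (MPO 7.62 against 8.93), 39.5 against 40.6 in HL60 (PRTN3 10.16 against 11.36), 33.8 against 34.3 in U937 and 14.47 against 14.18 in KG1a. The part of these markers in the receptor changes was not tested.

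In KG1a 3 receptors fell. CCR4, the receptor of CCL17 and CCL22, read 4.51, 4.60 and 4.67 with metformin, against 5.34, 4.85 and 5.46 in controls (-0.62 ± 0.12, adjusted p = 0.0067). CXCR3 read 4.71, 4.90 and 5.07, against 5.67, 5.40 and 5.45 (-0.61 ± 0.13, adjusted p = 0.0147). IL1RL1 read 3.79, 3.85 and 3.66, against 4.30, 4.32 and 4.30 (-0.54 ± 0.10, adjusted p = 0.0027), so its treated arrays lay under 4.02. The groups did not overlap for any of the 3. CCR4 lost its call without KG1a control C (-0.50), and CXCR3 without control A (-0.53) or metformin A (-0.52).

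IL17RA fell in U937 and HL60. In U937 it read 8.77, 8.61 and 8.57, against 9.28, 9.12 and 9.05 in controls (-0.50 ± 0.10, adjusted p = 0.0010). In HL60 it read 9.35, 9.41 and 9.20, against 9.61, 9.55 and 9.63 (-0.27 ± 0.10, adjusted p = 0.0432). Neither pair of groups overlapped. In MOLM14 treated arrays read 9.52, 9.38 and 9.42, against 9.65, 9.68 and 9.62 in controls, also without overlap, but the change of -0.21 ± 0.10 did not pass (adjusted p = 0.246). The KG1a change was 0.08 ± 0.10, and the difference in response between the classes did not pass (adjusted p = 0.0504). The HL60 call was lost without any of 5 single arrays, all but metformin B (-0.30 to -0.21), and without the 3 low arrays (-0.25).

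The receptor chains IL18R1, IL18RAP, IL1RAP and IL23R rose in HL60. IL18R1, which binds IL18, rose by 0.40 ± 0.10 (adjusted p = 0.0051), its neighbour IL18RAP by 0.42 ± 0.12 (adjusted p = 0.0110), IL1RAP, the shared chain of the IL1 and IL33 receptors, by 0.45 ± 0.10 (adjusted p = 0.0015), and IL23R by 0.34 ± 0.09 (adjusted p = 0.0098). With IL18 itself, a ligand and both chains of its receptor were thus higher in treated HL60. IL18R1 lost its call without HL60 control C (0.27) and IL18RAP without control B (0.35). Of the other chains of the IL1 family, IL1RL1 changed by -0.23 ± 0.10 and did not pass, and IL1RL2, IL1RAPL1 and IL1RAPL2 were under the limit. IL23R rose by 0.20 after quantile normalization, which did not pass.

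IL18RAP went in opposite directions in the low OXPHOS lines. HL60 arrays read 5.15, 5.17 and 5.21 with metformin, against 4.75, 4.63 and 4.89 in controls. U937 arrays read 4.65, 4.63 and 4.29, against 4.99, 5.17 and 4.67, a fall of 0.42 ± 0.12 (adjusted p = 0.0154). The groups did not overlap in either line, though in U937 treated A and control C are nearly equal. In U937 the call was lost without control A (-0.40), control B (-0.31) or metformin C (-0.30). In KG1a, which holds the most IL18RAP, treated arrays read 8.77, 8.80 and 8.77, against 9.16, 9.22 and 9.12, without overlap, but the change of -0.39 ± 0.12 did not pass.

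**Figure D4:**
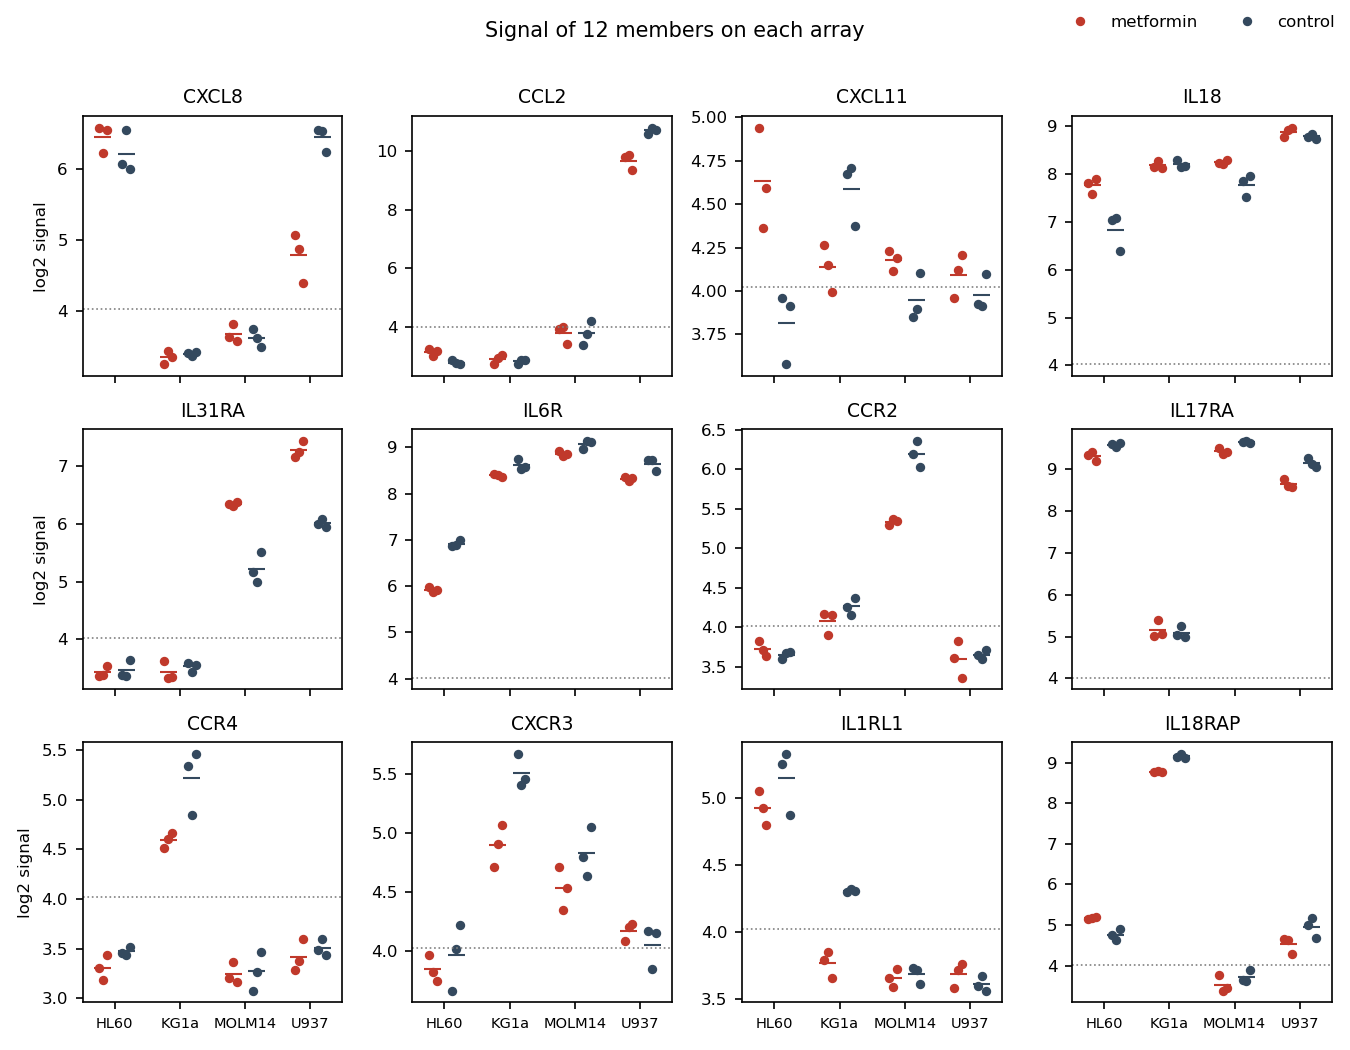
Signal (log2) of 12 members on each array, with metformin left of control in each line; short bars are group means and the dotted line is the limit of 4.02. CXCL8 and CCL2 are lower with metformin in U937, IL31RA is higher in MOLM14 and U937, IL6R is lower in HL60 and CCR2 in MOLM14.

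Of the inhibitors IL1RN, which blocks the IL1 receptor, fell in MOLM14. Its arrays read 5.28, 5.24 and 5.31 with metformin, against 5.74, 5.71 and 5.66 in controls, without overlap (-0.42 ± 0.09, adjusted p = 0.0080). IL18BP, which binds free IL18, passed in no metformin comparison. IL4I1, the amino acid oxidase, fell by 0.48 ± 0.10 in HL60 (adjusted p = 8.76e-04) and by 0.40 ± 0.10 in U937 (adjusted p = 0.0072). The U937 call was lost without control A (-0.32).

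Averaged over the 4 lines, with 12 treated and 12 control arrays, 17 members passed, 5 higher (background 16.3%) and 12 lower (16.1%). The receptors supplied 10 of them, 8 lower, and the ligands 6, 3 lower. IL31RA rose by 0.57 ± 0.06 (adjusted p = 4.71e-08) and IL18 by 0.37 ± 0.07 (adjusted p = 1.39e-04). IL6R fell by 0.44 ± 0.04 (adjusted p = 1.94e-08), the largest fall among the members. CCR1, a receptor of CCL23 and CCL5, fell by 0.23 ± 0.05 (adjusted p = 5.72e-04) though it passed in no single line. Its group mean was lower with metformin in all 4 lines, by 0.21 to 0.27, and no line's groups overlapped. It passed with any single line left out as well, with changes of -0.24 to -0.22. IL4I1 fell by 0.24 ± 0.05 and CCL23 by 0.23 ± 0.06, and CCL5 rose by 0.15 ± 0.04.

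Leaving out a line moved or ended many calls on the average. IL6R was at -0.25 and IL18 at 0.18 without HL60, and IL31RA at 0.33 without U937 and 0.38 without MOLM14, and all 3 still passed. CXCL8 changed by -0.35 ± 0.07 over the 4 lines but by 0.08 without U937, and CXCL11 by 0.18 ± 0.06 but by -0.04 without HL60. CCR2 (-0.26 ± 0.05) was at -0.05 without MOLM14, IL1RL1 (-0.18 ± 0.05) at -0.06 and CXCR3 (-0.23 ± 0.07) at -0.10 without KG1a. IL7R (-0.21 ± 0.06) was at -0.14 without MOLM14, and none of these passed there. IL1RAP (0.18 ± 0.05) did not pass without HL60 (0.09). In U937 it was higher by 0.25, which was not called, and the closest treated and control arrays read 5.94 and 5.91. IL17RA (-0.23 ± 0.05), lower in 3 lines, did not pass without U937 (-0.14). CXCR3 did not pass without the 3 low arrays either (-0.17, adjusted p = 0.0629). CCR4 (-0.22 ± 0.06) stayed under 4.02 in all groups of the other lines and was not tested without KG1a. CXCL12 (-0.15 ± 0.06), tested only through its HL60 control mean, lost its call in 9 of 23 fits that left out an array and CXCL11 in 12 of 24. CCL5, higher in HL60, KG1a and MOLM14 by 0.26, 0.19 and 0.21 without overlap, lost its call without HL60 (0.12) or MOLM14 (0.14) and after quantile normalization (0.12).

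The response to metformin differed between the lines for 12 of the 53 members (F test; background 10.0% of all genes). They were the receptors IL31RA, IL6R, CCR2, IL18RAP, IL1RL1, IL1RAP and IL17RA, the ligands CXCL8, CXCL11, CCL2 and IL18, and IL1RN. Between the OXPHOS classes the response differed for 8. The difference, high minus low OXPHOS lines, was positive for CXCL8 (0.71 ± 0.15), IL6R (0.45 ± 0.08) and IL4I1 (0.39 ± 0.10), 3 members (background 2.05%). It was negative for CXCL11 (-0.58 ± 0.13), CCR2 (-0.53 ± 0.10), CXCR3 (-0.45 ± 0.13), IL1RAP (-0.35 ± 0.10) and IL18R1 (-0.33 ± 0.10), 5 members (background 4.64%). Most again rested on a line: CXCL8 turned to -0.24 without U937, IL6R was at 0.11 without HL60 and CCR2 at -0.20 without MOLM14. CXCL11 was at -0.23 without HL60 and -0.24 without KG1a, the line pair that moved in opposite directions. IL4I1 did not pass without HL60 (0.35, adjusted p = 0.135), KG1a (0.43, adjusted p = 0.0844) or MOLM14 (0.35, adjusted p = 0.0932). CXCR3, IL18R1 and IL1RAP lost their call in 15, 15 and 11 of 24 fits that left out an array, with changes of -0.52 to -0.38, -0.37 to -0.27 and -0.39 to -0.29.

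Genes that act beside the members were read from fixed lists. Of 13 tested JAK-STAT genes 4 rose and 2 fell on the average of the lines (median change -0.02, against -0.01 in all genes). Of all genes 16.3% were higher and 16.1% lower in that comparison, which is the background for this list and those that follow. The kinase genes JAK2 (0.34 ± 0.06) and JAK1 (0.19 ± 0.03) and the factor STAT5B (0.21 ± 0.06) rose on the average. The feedback inhibitor SOCS1 fell by 0.20 ± 0.05, with a fall of 0.59 ± 0.09 in MOLM14. JAK2 passed in HL60 (0.59 ± 0.12) and U937 (0.52 ± 0.12), but not in KG1a (0.04 ± 0.12) or MOLM14 (0.22 ± 0.12). Its response differed between the classes by -0.43 ± 0.12 (adjusted p = 0.0353). JAK1 also passed in HL60 and U937, and STAT5B in no single line. Untreated, 12 of these 13 were higher in the high OXPHOS lines (background 28.4%; median difference 0.97, against -0.03 in all genes). Several were carried by KG1a: STAT4 averaged 8.33 there and 3.24 in MOLM14, against 3.31 in HL60 and 3.22 in U937. MOLM14 lay below U937 for JAK1 (8.11 and 8.58), JAK3 (4.18 and 5.94), STAT5A (5.75 and 6.22) and PIM1 (6.94 and 7.65). The class difference of STAT5B was within its error (0.03 ± 0.09). Of 13 NF-kB genes 2 rose and 3 fell (median -0.05), with IRAK3, a brake on IL1 receptor signalling, at 0.21 ± 0.04, IRAK2 at 0.17 ± 0.05, RELB at -0.19 ± 0.04 and IRAK1 at -0.13 ± 0.05. Of 8 TNF receptor adaptors 4 rose and 1 fell (median 0.13). The deubiquitinase CYLD (0.29 ± 0.05), the ubiquitin ligase BIRC2 (0.29 ± 0.06), TRAF5 (0.21 ± 0.05) and the caspase inhibitor CFLAR (0.16 ± 0.04) rose on the average. By line, CYLD passed in HL60 and U937 (0.47 ± 0.09 in each), against 0.03 ± 0.09 in KG1a and 0.20 ± 0.09 in MOLM14. Its response differed between the classes by -0.35 ± 0.09 (adjusted p = 0.0201). BIRC2 (0.49 ± 0.12) and CFLAR (0.35 ± 0.09) passed in HL60 alone, and TRAF5 (0.35 ± 0.10) in U937 alone.

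Cytokine genes outside the prefixes gave 2 rises and 3 falls among 16 tested (median -0.07). TNF, the founding ligand of its family, fell by 0.42 ± 0.05 (adjusted p = 3.33e-07), and did so in the low OXPHOS lines. Its means were 4.44 in treated and 5.38 in control HL60 arrays (-0.94 ± 0.10, adjusted p = 8.47e-08) and 5.85 and 6.6 in treated and control U937 arrays (-0.76 ± 0.10, adjusted p = 7.99e-06). In MOLM14, which held TNF at 8.67 with metformin and 8.61 without, the change was 0.06 ± 0.10. KG1a, the other high OXPHOS line, averaged 4.11 with metformin and 4.17 without, close to 4.02, where changes are compressed. The response differed between the classes by 0.85 ± 0.10 (adjusted p = 2.26e-06), with MOLM14 the only high OXPHOS line well above the limit. The receptor of the granulocyte growth factor, CSF3R, rose by 0.35 ± 0.05 and IFNGR1, a chain of the interferon gamma receptor, by 0.15 ± 0.04, while the chemokine receptor CX3CR1 fell by 0.27 ± 0.04. IFNGR1 averaged 8.10 with metformin and 7.64 without in HL60, but 6.98 and 6.88 in KG1a, 7.39 and 7.37 in MOLM14 and 7.32 and 7.30 in U937. CX3CR1 was under 4.02 in HL60 and KG1a, and averaged 5.45 and 5.99 in MOLM14 and 3.87 and 4.30 in U937. Of the 2 tested genes for decay of cytokine transcripts, ZC3H12A, an RNase that cleaves such transcripts, fell by 0.17 ± 0.05 on the average, with -0.59 ± 0.10 in U937. Its mean was also lower in HL60, at 5.70 with metformin and 6.03 without. In the high OXPHOS lines it was slightly higher with metformin, at 5.91 against 5.80 in KG1a and 6.19 against 6.05 in MOLM14.

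Ligands and their receptors were read side by side from a list of 26 entries, which names no receptor for IL16 and does not hold every known pair. Of the 26 entries 12 were pairs with both genes on the arrays. In 5 of these pairs both genes reached 4.02 in at least 1 untreated line. IL18 and IL18R1 did so in HL60, KG1a and U937, where IL18 averaged 7.76 with metformin and 6.83 without in HL60, 8.18 and 8.20 in KG1a, and 8.88 and 8.78 in U937. CCL19 and CCR7 did so in HL60, KG1a and MOLM14, with CCL19 group means of 4.15 to 4.32 in these lines and single arrays of 3.99 to 4.45, so close to the limit. CXCL8 and CXCR2 met in U937, CXCL12 and CXCR4 in HL60 and CXCL10 and CXCR3 in KG1a, with CXCR2, CXCL12 and CXCL10 at 4.69 or less. CCL2 with CCR2, CXCL8 with CXCR1, CXCL16 with CXCR6, CCL3 with CCR1, CCL20 with CCR6, IL7 with IL7R and IL31 with IL31RA did so in no untreated line. Of pairs not on the list, CCL5 (4.46 or more) and CCR1 (4.27 or more) were both above 4.02 in all 4 untreated lines. CCL23 and CCR1 were so in HL60, MOLM14 and U937, and CCL17 with CCR4 and CXCL11 with CXCR3 in KG1a. Of 25 pairs of members that neighbour each other on a chromosome, 6 had both genes tested. In the run IL1RL1, IL18R1 and IL18RAP the genes led different lines, HL60, U937 and KG1a, with IL18R1 arrays of U937 and HL60 overlapping.

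The 48 members under the limit had group means of 2.81 to 4.0, and their highest single array read 4.27. They were 35 ligands, 12 receptors and IL36RN. Among them were the T helper cytokines IL2, IL4, IL13, IL17A, IL21 and IL22, the anti-inflammatory IL10, the interferon-induced CXCL9, and the receptors CXCR1, CXCR5, CCR6, CCR8, CCR9 and CCR10. Their largest distance between group means was 0.64, and they were not tested. CXCL2 and CXCL3, CXCR1 and CXCR2, and CCL3 and CCL3L1 are close copies whose probes may share signal. Their values, and those of the related CCL4, are uncertain.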

How the data were processed

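The deposited table holds log2 signals of 53617 array rows, a scale judged from their range of 1.88 to 14.2. The submitters' processing notes name Partek. How the authors corrected background, normalized and summarised was not given in the sources used. The platform annotation names 1 gene for 16098 rows, and 37519 are unnamed. Where a gene had several rows, that with the highest mean of 24 arrays was kept.

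limma 3.58.1 (R 4.3.3) was fitted to the log2 values with 8 group means, in 1 fit over 10641 genes with at least 1 group mean of 4.02, with Benjamini-Hochberg adjustment and a threshold of 0.05. The fit was tested on simulated data. The number of arrays limits the precision. Replicate arrays shared at most 5 identical rows, so none was counted as a copy.

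Members and lists were chosen with earlier results of these data known. Named were all members past the threshold in a metformin comparison, up to 6 higher and 4 lower per untreated line, up to 6 each way per class comparison, and up to 4 genes per list; values per array were given at changes of 0.5 or more, and for some others. Alternatives were other normalizations, filters, moderation and thresholds, a replicate block, and leaving out arrays or lines.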

Additional observations from a re-analysis of the deposited data

Results flagged for a closer look

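The listed values were singled out because the response to metformin differed between lines or between the OXPHOS classes in limma's test of that difference. Across the 4 lines the adjusted p was 3.354e-07 for IL31RA, which rose in MOLM14 and U937, and 1.381e-06 for CXCL8, which fell in U937. It was 9.104e-05 for IL6R, 4.061e-04 for CXCL11, 4.856e-04 for CCR2 and 8.415e-04 for CCL2. IL18RAP, at 0.003792, was higher with metformin in HL60 and lower in U937. IL18 had 0.004825, IL1RL1 0.0152, IL1RN 0.02276, IL1RAP 0.02539 and IL17RA 0.04133.

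Between the classes the change in the high OXPHOS lines minus that in the low OXPHOS lines was 0.7088 for CXCL8, 0.4495 for IL6R and 0.3923 for IL4I1. It was -0.5761 for CXCL11, -0.533 for CCR2, -0.4531 for CXCR3, -0.3461 for IL1RAP and -0.3336 for IL18R1. Of these, CXCL8, IL6R, CXCL11, CCR2 and IL1RAP passed both tests.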

How the results depend on the processing

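The count of members past the threshold over the 4 lines was 17, and 15 to 19 when an array was left out. At a threshold of 0.01 HL60 had 7 members, MOLM14 3 and the class difference in response 4. Fitted alone, U937 had 5. Without the 3 low arrays (U937 metformin A and control C of HL60 and U937) KG1a had 5. Leaving out an array gave MOLM14 3 to 5 members, HL60 8 to 11, KG1a 2 to 3, U937 7 to 10, and the class difference 5 to 9. Without HL60 the class difference had 5 and without KG1a 4. Reversed were CXCL11 over the lines without HL60 (-0.0354), and CXCL8 without U937 both over the lines (0.0823) and between classes (-0.2424). The causes were not tested. The letters do not pair the arrays (correlations of deviations -0.062 to 0.146); with a replicate block the counts were 18 over the lines, 10, 4, 4 and 8 in HL60, KG1a, MOLM14 and U937, 10 and 6 for differences in response between lines and classes, and 41 and 32 for the untreated lines and classes. Of 54 named values 48 kept their call under quantile normalization, 48 with centred arrays and 47 with the block. A member under the limit in a refit has no value there. Probes near 4.02 compress changes, and array signals give no protein levels.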
